A study of Mus musculus with 10 samples.

Results

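Tnfaip3, Tnip1, Tnip2, Tnip3 and Irak3 encode inhibitors of Toll-like receptor signalling, and these 5 genes were taken by name from the 11617 genes of the table. All 5 were listed, and all 5 were among the 11407 genes tested, whose mean CPM, a read count scaled by 1 factor per library, was 1 or more. The mRNA of macrophages grown from bone marrow of C57BL/6 mice was read in 10 libraries, 2 in each of 5 groups (n = 2 per group). The groups were AmTARS for 3 h, AmTARS for 1 h, Pam3csk4 for 3 h, Pam3csk4 for 1 h, and untreated control cells, which carried no time label. The series compared both agents as ligands of the receptor TLR2. AmTARS reads as a threonyl-tRNA synthetase of the bacterium Akkermansia muciniphila, and Pam3csk4 is a synthetic lipopeptide that activates TLR2 together with TLR1. Pam3csk4 was given at 10 ng/ml, and the AmTARS dose is written as 0.5 with the unit mm, so the doses cannot be set against each other. All cells, control included, had been grown with 50 ng/ml GM-CSF and 10% serum from marrow of mice given as 7 weeks old in one label and 6 weeks in another. Whether the pair of libraries in a group stems from different cultures or mice is not stated, so p-values measure only the spread between these libraries, which may be technical.

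TLR2 signals through the adaptor MyD88, a kinase complex of the IRAK family and the ubiquitin ligase TRAF6, whose ubiquitin chains switch on the kinases that free NF-kB. NF-kB then switches on genes of inflammation and, among them, genes whose products shut the pathway down. A20, the product of Tnfaip3, edits and removes ubiquitin chains on signalling proteins. The Tnip genes encode ABIN-1, ABIN-2 and ABIN-3, proteins named for binding A20, and ABIN-1 and ABIN-2 also bind ubiquitin chains. Irak3 encodes IRAK-M, an IRAK family member that lacks kinase activity and restrains the complex below MyD88, and macrophages are the cells in which it is best known.

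The stretches upstream of the start sites are shown for all 5 genes. They were chosen for display after 4 genes were seen to move together at 3 h and 1 not. They are 250 bases before the RefSeq start site (GRCm38.p6, the build also called mm10), read 5′ to 3′ on the gene's strand, and capitals mark matches to the 10-letter kappaB consensus that NF-kB binds, searched on both strands.
Tnfaip3, chr10:19015411-19015660, minus strand: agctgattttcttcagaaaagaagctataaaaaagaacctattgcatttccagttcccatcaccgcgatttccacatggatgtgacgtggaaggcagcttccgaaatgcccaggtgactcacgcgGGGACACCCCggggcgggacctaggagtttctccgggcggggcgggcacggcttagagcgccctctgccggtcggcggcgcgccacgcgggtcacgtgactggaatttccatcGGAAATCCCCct
Tnip1, chr11:54962941-54963190, minus strand: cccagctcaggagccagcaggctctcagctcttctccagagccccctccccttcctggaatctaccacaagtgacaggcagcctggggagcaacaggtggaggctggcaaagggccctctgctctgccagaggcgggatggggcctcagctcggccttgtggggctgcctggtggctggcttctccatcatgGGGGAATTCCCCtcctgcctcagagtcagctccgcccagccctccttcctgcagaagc
Tnip3, chr6:65590148-65590397, plus strand: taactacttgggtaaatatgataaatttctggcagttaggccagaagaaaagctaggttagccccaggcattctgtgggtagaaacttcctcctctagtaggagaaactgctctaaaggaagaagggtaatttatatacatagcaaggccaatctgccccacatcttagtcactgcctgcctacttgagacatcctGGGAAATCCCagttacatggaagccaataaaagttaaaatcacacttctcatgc
Irak3, chr10:120202131-120202380, minus strand: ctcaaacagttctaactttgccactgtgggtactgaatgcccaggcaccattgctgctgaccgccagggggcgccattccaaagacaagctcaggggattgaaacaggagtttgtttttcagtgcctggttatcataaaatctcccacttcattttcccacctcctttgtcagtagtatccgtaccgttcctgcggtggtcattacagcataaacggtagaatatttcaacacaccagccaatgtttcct
Tnip2, chr5:34513980-34514229, minus strand: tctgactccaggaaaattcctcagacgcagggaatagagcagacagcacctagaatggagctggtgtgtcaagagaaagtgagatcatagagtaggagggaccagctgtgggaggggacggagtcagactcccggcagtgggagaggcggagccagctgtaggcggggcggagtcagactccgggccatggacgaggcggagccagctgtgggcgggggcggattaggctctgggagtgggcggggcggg

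Tnfaip3 held 2 matches in this window, GGGACACCCC, which begins 125 bases before the start site, and GGAAATCCCC, which begins 12 bases before it. Tnip1 held 3 overlapping matches in 1 run of letters from 58 to 47 bases before the start site, and Tnip3 held 1, GGGAAATCCC, from 54 to 45 bases before it. Neither the Tnip2 window nor the Irak3 window held the motif, and nor did the second RefSeq start site of Tnfaip3 or of Irak3, which are not shown. Over all RefSeq windows of the same kind, which run on to 50 bases past the start site, 8.46% of 32851 held at least 1 match. Irak3, without a match, rose at 3 h with both ligands, and Tnip2, also without one, did not pass. A match is a run of letters and was not tested for binding here, and its part in the changes was not tested.

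In the GENCODE annotation of the same build, Tnfaip3 (ENSMUSG00000019850.11) lies on chromosome 10 from 19000910 to 19015657 and Irak3 (ENSMUSG00000020227.10) on the same chromosome from 120141648 to 120202130. Tnip1 (ENSMUSG00000020400.17) lies on chromosome 11 from 54910785 to 54962917, Tnip2 (ENSMUSG00000059866.13) on chromosome 5 from 34496087 to 34513991, and Tnip3 (ENSMUSG00000044162.12) on chromosome 6 from 65525313 to 65634040. The Tnip3 window shown above, at 65590148 to 65590397, lies far inside this GENCODE gene, so the annotations differ on its start. The sequence before the GENCODE start of Tnip3 was not searched for the motif. The Tnfaip3 window shown also lies mostly inside its GENCODE gene. Irak3 overlaps the gene Tmbim4 on the opposite strand. The library kit keeps the strand, but whether the counting used it is not given in the sources used here, so reads shared with Tmbim4 cannot be told apart.

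Each library had between 27398791 and 37559810 reads in the listed genes, and its pair correlated at 0.998 across genes in every group. The Pam3csk4 3 h libraries differed most from each other, with a chi-square per degree of freedom of 7.5 against counting noise, compared with 3.58 to 4.63 in the other groups. All 8 macrophage markers on the list were present, and their summed level ran from 49274 to 53969 CPM over the 10 libraries. Most of that sum was Lyz2, at 42922 to 47748 CPM, while Cd14 ran from 617 to 2084 CPM and Mertk from 28.1 to 67.1 CPM. Of 6 neutrophil markers 5 were listed, and their sum was 1369 to 1463 CPM with AmTARS at 3 h, 1399 to 1420 CPM with AmTARS at 1 h, 1543 to 1822 CPM with Pam3csk4 at 3 h, 1384 to 1691 CPM with Pam3csk4 at 1 h, and 1003 to 1091 CPM in control. Most of the neutrophil sum was S100a9, at 624 to 1108 CPM, and S100a8, at 327 to 634 CPM. The 3 listed of 6 dendritic cell markers summed to 238 to 261 CPM in the treated libraries, against 208 and 210.4 CPM in control. All 4 fibroblast markers were listed, with sums of 1212 to 1422 CPM in treated libraries and 1402 to 1473 CPM in control. Of the other lists, 1 of 5 T cell, 1 of 4 B cell, 0 of 3 NK cell and 2 of 3 mast cell or basophil markers were listed. The part of these markers in the changes below was not tested. In bulk RNA, more cells that express a gene and more RNA per cell cannot be told apart. Short transcripts tended to be higher and long ones lower in each treated group relative to control, with Spearman's rho across genes between length and log2 fold change of -0.74 for AmTARS at 1 h and -0.51 for Pam3csk4 at 3 h at the extremes. The 5 genes have transcripts of 2022 to 4422 nt. For these 5 genes a value corrected for length and GC content is given below where it changes a call.

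Tnfaip3, the gene of A20, was higher in all 4 treated groups than in control. Its level was 59.2 and 60.0 CPM with AmTARS at 3 h, 60.9 and 62.5 CPM with AmTARS at 1 h, 128 and 143 CPM with Pam3csk4 at 3 h, 78.9 and 85.1 CPM with Pam3csk4 at 1 h, and 49.2 and 47.2 CPM in control. Every treated library lay above both control libraries, both Pam3csk4 groups lay above both AmTARS groups, and the AmTARS libraries of 3 h lay just below those of 1 h. On the log2(CPM + 1) scale used for every fold change here, it rose with AmTARS by 0.30 at 3 h (SE 0.06, adjusted p in limma 0.000548) and by 0.35 at 1 h (SE 0.06, adjusted p 0.000129). With Pam3csk4 it rose by 1.47 at 3 h (SE 0.06, adjusted p 7.93e-14) and by 0.75 at 1 h (SE 0.06, adjusted p 2.25e-08). Among all tested genes the rise with Pam3csk4 at 1 h ranked 29 from the top, and that with AmTARS at 1 h ranked 509.

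With AmTARS the Tnfaip3 difference between 3 h and 1 h did not pass (difference -0.05, 95% interval -0.17 to 0.07, adjusted p 0.807). With Pam3csk4 it rose again between the times, by 0.72 at 3 h relative to 1 h (SE 0.06, adjusted p 5.28e-09). Of the 5 genes it alone passed between the ligands at 1 h, where it was lower with AmTARS than with Pam3csk4 by a difference of -0.40 (SE 0.06, adjusted p 0.000689). At that time 0.184% of all tested genes differed between the ligands, 21 in number. At 3 h the difference of AmTARS from Pam3csk4 was -1.17 (SE 0.06, adjusted p 1.02e-11).

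**Figure D1:**
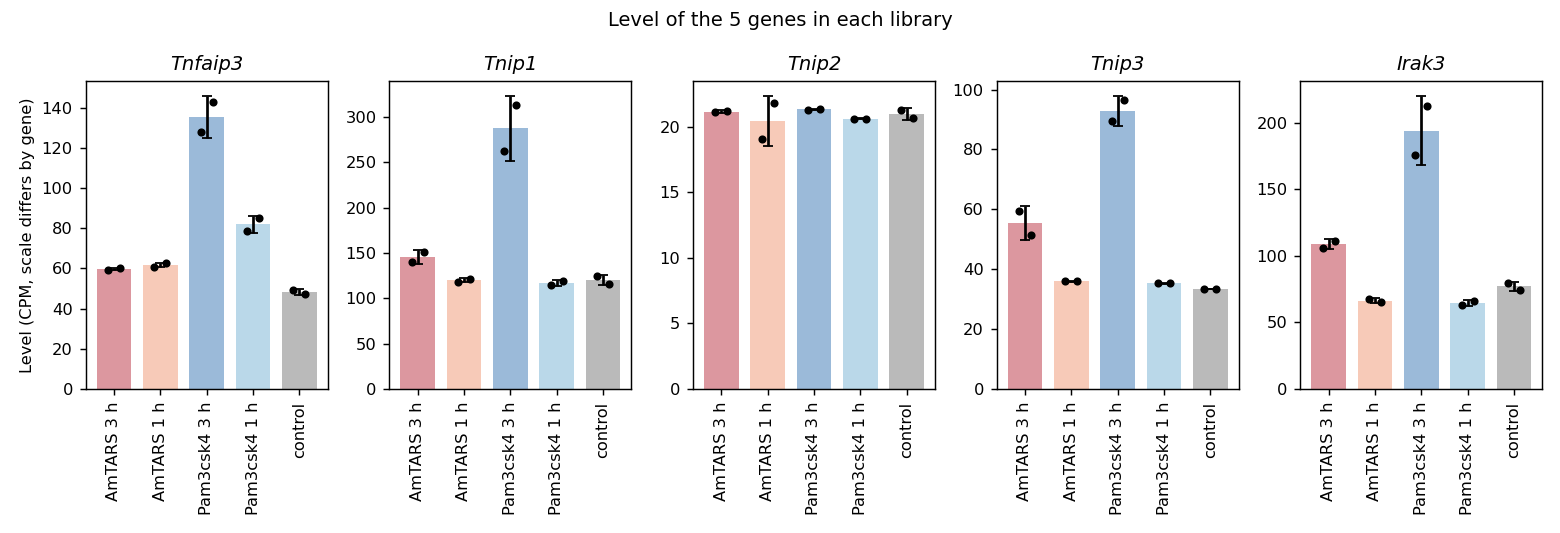
Level of each gene in CPM (y axis, starting at 0, with its own scale per gene) in the 5 groups; bars are group means, error bars the SD over 2 libraries and points the single libraries. Tnfaip3 is above control in all treated groups, Tnip1, Tnip3 and Irak3 are above it at 3 h, and Tnip2 stays between 19.1 and 21.8 CPM.

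Tnip1, the gene of ABIN-1, which joins A20 to ubiquitin chains and to the regulatory subunit of the IKK kinase, was higher at 3 h and not detectably changed at 1 h. It had 139.7 and 151 CPM with AmTARS at 3 h, 118 and 122 CPM with AmTARS at 1 h, 262 and 313 CPM with Pam3csk4 at 3 h, 114 and 119 CPM with Pam3csk4 at 1 h, and 124 and 116 CPM in control. The 3 h libraries of both ligands lay above all others, while the 1 h libraries overlapped with control. Tnip1 rose with AmTARS at 3 h by 0.28 (SE 0.06, adjusted p 0.00289) and with Pam3csk4 at 3 h by 1.25 (SE 0.06, adjusted p 6.51e-12). At 1 h it stood at -0.00067 with AmTARS (95% interval -0.14 to 0.13) and at -0.04 with Pam3csk4 (95% interval -0.17 to 0.10), so a change of the size seen at 3 h lies outside both intervals.

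Relative to 1 h, Tnip1 rose at 3 h by 0.28 with AmTARS (SE 0.06, adjusted p 0.0226) and by 1.28 with Pam3csk4 (SE 0.06, adjusted p 5.07e-12). The AmTARS time change had the highest adjusted p of the calls among the 5 genes, and it stood at 0.26 (adjusted p 0.254) without AmTARS 1 h replicate 2, at 0.30 (adjusted p 0.0951) without AmTARS 1 h replicate 3 and at 0.22 (adjusted p 0.389) without AmTARS 3 h replicate 3. Between the ligands Tnip1 differed by -0.97 at 3 h (AmTARS minus Pam3csk4, SE 0.06, adjusted p 7.53e-10) and stood at 0.04 at 1 h (95% interval -0.10 to 0.17).

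Tnip3, the gene of ABIN-3, rose at 3 h with both ligands. It had 59.4 and 51.6 CPM with AmTARS at 3 h, 36.0 and 35.9 CPM with AmTARS at 1 h, 89.4 and 96.5 CPM with Pam3csk4 at 3 h, 35.4 and 35.3 CPM with Pam3csk4 at 1 h, and 33.4 and 33.4 CPM in control. All 1 h libraries lay slightly above both controls, and all 3 h libraries lay clearly above those of 1 h. Against control Tnip3 rose at 3 h by 0.71 with AmTARS (SE 0.06, adjusted p 3.85e-07) and by 1.45 with Pam3csk4 (SE 0.06, adjusted p 3.8e-13). The AmTARS value ranked 29 from the top of all tested genes, and of the 5 genes it was the largest change against control with AmTARS.

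At 1 h Tnip3 stood at 0.10 with AmTARS (adjusted p 0.213) and at 0.08 with Pam3csk4 (adjusted p 0.326), neither of which passed. After the correction for length and GC content these values were 0.18 (adjusted p 0.0479) and 0.21 (adjusted p 0.0127), and both passed. Relative to 1 h, Tnip3 rose at 3 h by 0.61 with AmTARS (SE 0.06, adjusted p 8.95e-06) and by 1.37 with Pam3csk4 (SE 0.06, adjusted p 1.31e-12). AmTARS gave less than Pam3csk4 at 3 h by a difference of -0.74 (SE 0.06, adjusted p 2.72e-08), and at 1 h the difference stood at 0.02 (95% interval -0.11 to 0.16).

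Tnip2, the gene of ABIN-2, which also holds the kinase TPL2 and the NF-kB precursor p105 in a complex, did not pass in any of the 9 comparisons. It had 21.1 and 21.2 CPM with AmTARS at 3 h, 19.1 and 21.8 CPM with AmTARS at 1 h, 21.3 and 21.4 CPM with Pam3csk4 at 3 h, 20.6 and 20.6 CPM with Pam3csk4 at 1 h, and 21.3 and 20.7 CPM in control. The groups spanned 19.1 to 21.8 CPM, with both extremes in the AmTARS 1 h group. With Pam3csk4 at 3 h, where the other 4 genes were at 1.25 to 1.47, Tnip2 stood at 0.02 with a 95% interval of -0.12 to 0.17. With AmTARS at 3 h it stood at 0.01, with an interval of -0.13 to 0.16. It was the gene with the fewest reads, 557 to 793 per library.

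Irak3, the gene of IRAK-M, was lower than in control at 1 h and higher at 3 h with both ligands. It had 106 and 111 CPM with AmTARS at 3 h, 67.7 and 65.2 CPM with AmTARS at 1 h, 175 and 212 CPM with Pam3csk4 at 3 h, 63.0 and 66.3 CPM with Pam3csk4 at 1 h, and 79.5 and 74.6 CPM in control. The 1 h libraries lay below both controls and the 3 h libraries above them, with no overlap. It fell by 0.21 with AmTARS at 1 h (SE 0.07, adjusted p 0.0179) and fell by 0.25 with Pam3csk4 at 1 h (SE 0.07, adjusted p 0.00463). Both falls were measured against the same 2 control libraries. Without control replicate 2 they stood at -0.17 (adjusted p 0.162) and -0.21 (adjusted p 0.0661). The AmTARS value was -0.18 (adjusted p 0.114) without AmTARS 1 h replicate 3, and the Pam3csk4 value was -0.21 (adjusted p 0.051) without Pam3csk4 1 h replicate 1.

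At 3 h Irak3 rose by 0.49 with AmTARS (SE 0.07, adjusted p 3.36e-05) and by 1.31 with Pam3csk4 (SE 0.07, adjusted p 4.99e-12). Relative to 1 h it rose by 0.70 with AmTARS (SE 0.07, adjusted p 3.05e-06), which ranked 5 from the top of 11407 genes, and by 1.56 with Pam3csk4 (SE 0.07, adjusted p 5.16e-13). In these time comparisons the control libraries enter through the shared spread and not through the difference. Between the ligands the difference of AmTARS from Pam3csk4 was -0.82 at 3 h (SE 0.07, adjusted p 1.3e-08) and 0.04 at 1 h (95% interval -0.10 to 0.18).

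**Figure D2:**
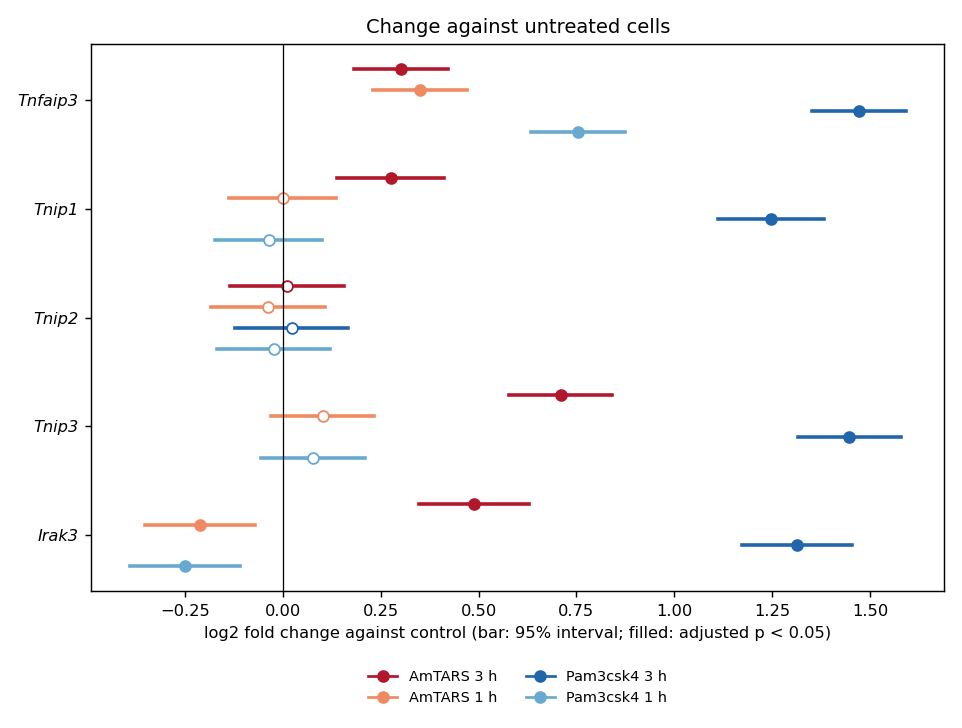
log2 fold change against control (x axis) of each gene in the 4 treated groups, with the 95% interval as a bar and a filled point where adjusted p was below 0.05. At 3 h 4 of the 5 genes are filled to the right of 0 for both ligands; at 1 h Tnfaip3 is filled to the right and Irak3 to the left.

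Counted over the set, 4 of 5 genes rose and none fell with AmTARS at 3 h, where 36.7% of all tested genes changed, 18.8% higher and 17.9% lower. With AmTARS at 1 h 1 rose and 1 fell, where 38.7% of all genes changed, 18.9% higher and 19.8% lower. With Pam3csk4 at 3 h 4 rose and none fell, where 48.9% of all genes changed, 24.7% higher and 24.2% lower. With Pam3csk4 at 1 h 1 rose and 1 fell, where 48.7% of all genes changed, 23.9% higher and 24.8% lower. Without the length and GC correction, the 2 members called at 1 h are thus close to the share of all genes. The 4 called at 3 h are above it. The 5 genes were chosen with earlier results of these data known, so the shares do not test the set. The median log2 fold change of the 5 genes was 0.30 with AmTARS at 3 h and 1.31 with Pam3csk4 at 3 h, against 0.0011 and -0.0068 over all tested genes. At 1 h the medians were -0.00067 with AmTARS and -0.024 with Pam3csk4, against -0.0016 and -0.0034 over all genes. The 4 comparisons share their 2 control libraries. Both treated libraries lay apart from both control libraries for 4 of the 5 genes with AmTARS at 3 h (71.3% of all genes), 3 with AmTARS at 1 h (70.4%), 4 with Pam3csk4 at 3 h (75.6%) and 4 with Pam3csk4 at 1 h (75.8%), so such separation was common.

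At 3 h the 4 genes that rose did so by 0.28 to 0.71 with AmTARS and by 1.25 to 1.47 with Pam3csk4. With Pam3csk4 the 4 genes that rose had 95% intervals between 1.11 and 1.59 that overlapped for every pair. With AmTARS the interval of Tnip3, 0.58 to 0.84, lay above those of Tnfaip3, 0.18 to 0.42, and Tnip1, 0.14 to 0.41, and overlapped that of Irak3, 0.35 to 0.63. No test was run between genes.

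Between the ligands at 3 h, AmTARS was lower than Pam3csk4 for 4 of 5 genes and higher for none, where 17.1% of all tested genes differed, 9.08% lower and 8.04% higher. At 1 h it was lower for 1 of 5, where 0.184% of all genes differed, 0.175% lower and 0.00877% higher. The 3 h level was above the 1 h level for 3 of 5 genes with AmTARS, where 2.38% of all genes differed, 1.81% higher and 0.57% lower. With Pam3csk4 it was above for 4 of 5 genes, where 31.5% of all genes differed, 16.2% higher and 15.3% lower. Both libraries of each group lay apart for 5 of the 5 genes between the ligands at 3 h (55.1% of all genes) and for 2 at 1 h (37.7%), and between the times for 4 with AmTARS (44.2%) and 5 with Pam3csk4 (63.5%).

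The difference of the time changes, AmTARS minus Pam3csk4, was negative for 4 of 5 genes, where 9.2% of all tested genes passed, 5.71% lower and 3.49% higher. It was -1.01 for Tnip1 (SE 0.09, adjusted p 2.63e-07), -0.86 for Irak3 (SE 0.10, adjusted p 2.36e-06), -0.77 for Tnfaip3 (SE 0.08, adjusted p 1.57e-06) and -0.76 for Tnip3 (SE 0.09, adjusted p 5.64e-06). Tnip2 stood at 0.0036 (95% interval -0.20 to 0.21).

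**Figure D3:**
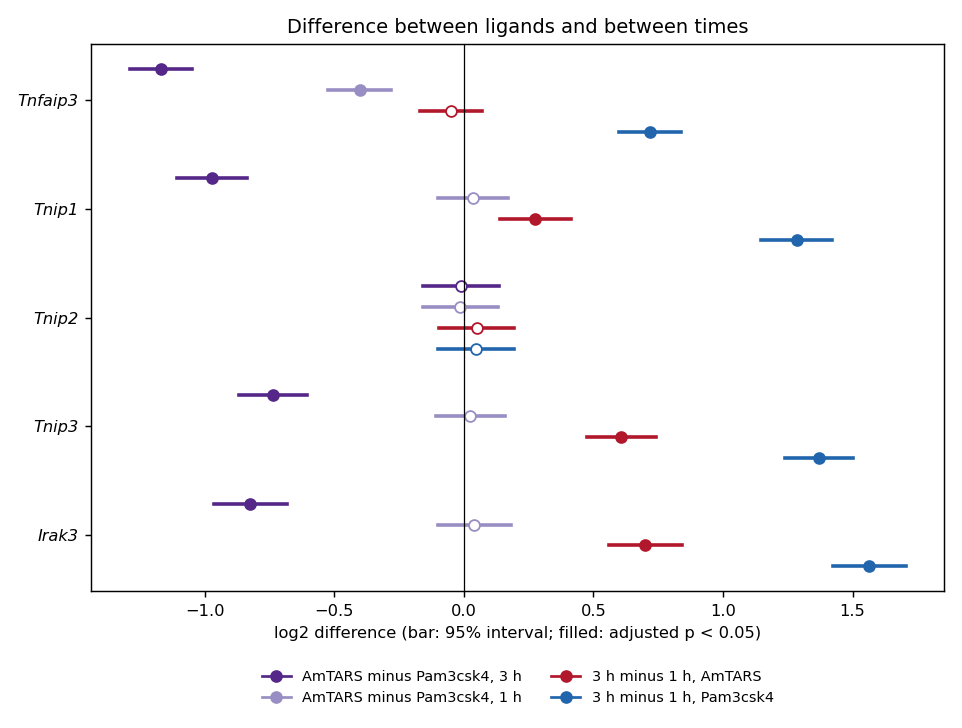
log2 difference (x axis) between the ligands at each time and between the times for each ligand, per gene, with the 95% interval as a bar and a filled point where adjusted p was below 0.05. At 1 h the ligand difference is filled for Tnfaip3 at -0.40, and at 3 h it runs from -1.17 for Tnfaip3 to -0.74 for Tnip3 among the filled points.

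Per kb of the longest protein-coding transcript, which allows levels of different genes to be set side by side, Tnip1 was the highest of the 5 in every group. It had 48.9 ± 2.8 CPM per kb with AmTARS at 3 h, 96.6 ± 12.1 with Pam3csk4 at 3 h and 40.4 ± 2.0 in control (SD, n = 2). Irak3 came next, with 35.1 ± 1.2, 62.6 ± 8.5 and 24.9 ± 1.1 CPM per kb in the same 3 groups. Tnip3 had 14.7 ± 1.5 CPM per kb with AmTARS at 3 h and 24.7 ± 1.3 with Pam3csk4 at 3 h, above Tnip2 at 10.5 ± 0.049 and 10.5 ± 0.031, whereas in control Tnip3 had 8.9 ± 0.00046 and Tnip2 10.4 ± 0.23. The order of Tnip2 and Tnip3 was thus turned round in the 3 h groups. Tnfaip3 had 13.5 ± 0.14, 30.6 ± 2.4 and 10.9 ± 0.33 CPM per kb in those groups. These levels depend on which transcript is taken as the gene's length.

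Across the 10 libraries the log2 values of Irak3 and Tnip3 correlated at 0.97, those of Irak3 and Tnip1 at 0.97 and those of Tnip1 and Tnip3 at 0.95 (Pearson), and those of Tnfaip3 with these genes at 0.70 to 0.83. Tnip2 correlated with the others at 0.19 to 0.40. Among 9157 genes that averaged 5 CPM or more, the closest to Tnfaip3 were the chemokine gene Cxcl1 (r = 0.995), Ccrl2 (r = 0.990), a gene of a chemokine-binding receptor, and Nfkbiz (r = 0.980), the gene of an NF-kB cofactor. Closest to Tnip1 were Src, Tnfaip2 and Nlrp3 (r = 0.996 to 0.997), closest to Tnip3 were Mmp14, Clec4a1 and Lpcat2 (r = 0.989 to 0.992), and closest to Irak3 were Acsl1 (r = 0.998), Nadk (r = 0.997) and Ikbke (r = 0.994). For Tnip2 the highest were Fam219a, Slc43a3 and Aen at 0.89 to 0.92. The 10 libraries fall into 5 groups, so these values mostly describe patterns over 5 points.

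Among 7 genes whose products work with A20, 1 rose and 2 fell with AmTARS at 3 h, with the same counts at 1 h; with Pam3csk4 2 rose and 2 fell at 3 h, and 1 rose and 4 fell at 1 h. Over all tested genes the shares called were 36.7% with AmTARS at 3 h, 38.7% with AmTARS at 1 h, 48.9% with Pam3csk4 at 3 h and 48.7% with Pam3csk4 at 1 h, split about evenly between higher and lower, so nothing particular to these partners is read from their counts. Ube2n, the gene of the ubiquitin-conjugating enzyme UBC13, rose by 0.20 with AmTARS and by 0.34 with Pam3csk4 at 3 h. Itch, a ubiquitin ligase of the A20 complex, fell by 0.27 with either ligand at 3 h, and Ripk1, a kinase that A20 acts on, fell by 0.20 with AmTARS and by 0.30 with Pam3csk4. The list's medians ran from -0.15 with Pam3csk4 at 1 h to 0.03 with Pam3csk4 at 3 h. Values of this list and of the lists below were not corrected for length and GC content. That correction cut the genes called at 1 h from 4415 to 1581 with AmTARS and from 5556 to 2590 with Pam3csk4.

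Among 6 genes of other enzymes that remove ubiquitin or a ubiquitin-like protein, 2 rose and 1 fell with AmTARS at each time, 1 rose and 1 fell with Pam3csk4 at 3 h, and 2 rose and 2 fell at 1 h. Nothing particular to these 6 genes is read from the counts either. Usp18, whose product removes the ubiquitin-like protein ISG15, rose by 0.21 with AmTARS at 3 h, by 0.23 with AmTARS at 1 h and by 0.29 with Pam3csk4 at 1 h, and stood at -0.11 with Pam3csk4 at 3 h, which did not pass. It was lower with Pam3csk4 at 3 h than at 1 h by a difference of -0.40 (adjusted p 1.4e-05). At 3 h its difference of AmTARS from Pam3csk4 was 0.32 (adjusted p 0.000348), in the opposite direction to that of Tnfaip3. The other 5 genes of this list did not pass between the ligands at 3 h. Otulin, whose product cuts linear ubiquitin chains, stood at 0.21 with AmTARS and 0.19 with Pam3csk4 at 3 h, and both passed. Otud7b, of the same enzyme family as A20, fell by 0.26 with AmTARS and by 0.22 with Pam3csk4 at 3 h. Of the 3 genes of the ligase complex that builds linear chains, Rbck1 rose in all 4 treated groups, by 0.17 to 0.18, and Rnf31 and Sharpin did not pass in any of them.

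Of 15 genes of receptors, kinases and adaptors of the pathway, 4 rose and 2 fell with AmTARS at 3 h. With AmTARS at 1 h 1 rose and 8 fell. With Pam3csk4 4 rose and 1 fell at 3 h, and 2 rose and 8 fell at 1 h. Over all genes 18.8% rose and 17.9% fell with AmTARS at 3 h, 18.9% rose and 19.8% fell with AmTARS at 1 h, 24.7% rose and 24.2% fell with Pam3csk4 at 3 h, and 23.9% rose and 24.8% fell with Pam3csk4 at 1 h. Tlr2 rose by 0.56 with AmTARS and by 1.74 with Pam3csk4 at 3 h. Tlr1, its partner receptor for Pam3csk4, rose by 0.19 with AmTARS and by 0.90 with Pam3csk4 at 3 h. Like Irak3, it was lower than in control at 1 h, at -0.24 with AmTARS and -0.30 with Pam3csk4, and both passed. Irak2, an IRAK kinase of the complex that IRAK-M restrains, rose by 0.18 with AmTARS and by 0.79 with Pam3csk4 at 3 h. Tirap, the adaptor between TLR2 and MyD88, fell by 0.34 with AmTARS and by 0.40 with Pam3csk4 at 1 h. At 3 h Tirap stood at -0.35 with AmTARS, which passed, and at -0.15 with Pam3csk4, which did not. None of these values was corrected for length and GC content. The medians of the list were -0.04 with AmTARS at 3 h, -0.17 with AmTARS at 1 h, 0.01 with Pam3csk4 at 3 h and -0.15 with Pam3csk4 at 1 h. AmTARS was lower than Pam3csk4 at 3 h for 4 of the 15 genes, by most for Tlr2 at -1.18, and higher for none. Over all tested genes 9.08% were lower and 8.04% higher.

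Among 18 genes of other inhibitors and regulators of the pathway and of its cytokines, 12 rose and none fell with AmTARS at 3 h. With AmTARS at 1 h 10 rose and 1 fell. With Pam3csk4 13 rose and 3 fell at 3 h, and 11 rose and 1 fell at 1 h. These counts are to be read against the same shares of all genes. Their medians were 0.33 with AmTARS at 3 h, 0.27 with AmTARS at 1 h, 0.88 with Pam3csk4 at 3 h and 0.33 with Pam3csk4 at 1 h. Nfkbia and Nfkbiz, genes of an inhibitor and a cofactor of NF-kB, had already risen at 1 h. Nfkbia stood at 0.84 with AmTARS and 1.28 with Pam3csk4 at 1 h, and Nfkbiz at 0.78 with AmTARS and 1.44 with Pam3csk4, and all 4 values passed. With AmTARS both were at -0.23 at 3 h relative to 1 h, which passed for Nfkbia and not for Nfkbiz. With Pam3csk4 they rose further, by 0.44 and 0.68. Zfp36 stood at 1.33 with Pam3csk4 at 1 h and was lower at 3 h than at 1 h, by a difference of -0.92. Nfkbie, the gene of another NF-kB inhibitor, rose against control by 0.79 with AmTARS and by 1.95 with Pam3csk4 at 3 h. It had passed at 1 h as well, at 0.27 with AmTARS and 0.29 with Pam3csk4. Relative to 1 h it rose at 3 h by 0.52 with AmTARS (adjusted p 2.83e-05) and by 1.66 with Pam3csk4 (adjusted p 1.63e-13). AmTARS was lower than Pam3csk4 at 3 h for 11 of the 18 genes and higher for 2, against 9.08% and 8.04% of all genes. The largest differences were -1.62 for Socs3, -1.57 for Nfkbiz and -1.16 for Nfkbie. At 1 h AmTARS was lower for 5 and higher for none, against 0.175% and 0.00877%. The difference of the time changes was negative for 10 and positive for 2, Zfp36 among them, against 5.71% and 3.49%.

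**Figure D4:**
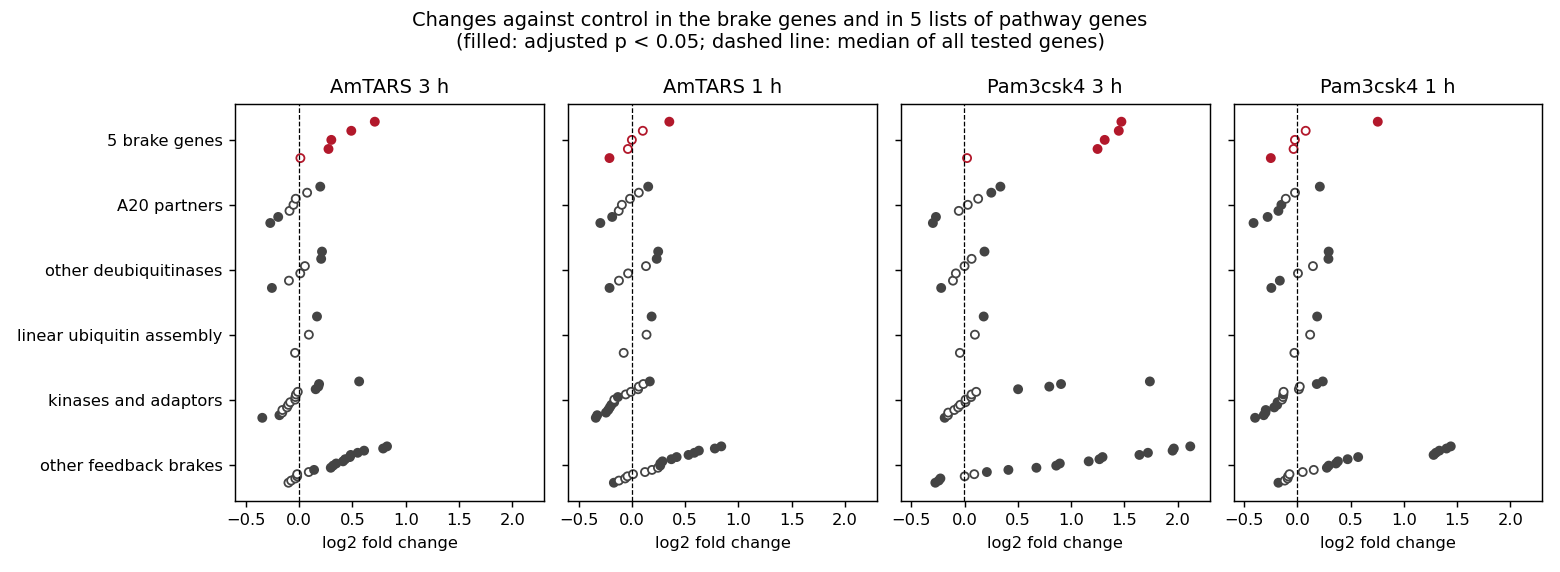
log2 fold change against control (x axis) of the 5 genes and of 5 lists of pathway genes in the 4 treated groups; each point is a gene, filled where adjusted p was below 0.05, and the dashed line is the median of all tested genes. With Pam3csk4 at 3 h 4 of the 5 genes lie between 1.25 and 1.47 and Tnip2 at 0.02. The A20 partners lie there between -0.30 and 0.34 and the other deubiquitinases between -0.22 and 0.19.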

How the data were processed

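Expression came as log2(CPM + 1), in 1 table that the authors deposited for all libraries. Per the submitters' processing notes, reads were aligned with STAR 2.5.1 to mm10 and R 3.3.0 was used; the counter, annotation, filter and scaling are not given in the sources used here. With 1 factor per library, 100% of back-transformed values were whole reads to within 0.1 read. Listed genes summed to 959639 and 960837 CPM in the control libraries and to 998260 to 1037796 CPM in the treated ones. The factors were thus not plain read totals. Only listed genes enter, so genes without reads in some library may be missing.

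For 11407 genes the deposited log2 values were modelled by group means in limma 3.58.1 (R 4.3.3; intensity trend; 5 residual and 14.7 prior degrees of freedom). There were 9 contrasts, with Benjamini-Hochberg adjustment over all genes in each and a threshold of 0.05. SE is moderated, and all groups share 1 spread per gene. Lengths and GC content came from GENCODE M21 (longest protein-coding transcript, 11364 tested genes matched), start-site sequences from RefSeq. The calculation was tested on simulated data. Alternatives were other filters (none, 5 CPM), pseudocounts (0.25, 5), quantile scaling, a spline correction (5 degrees of freedom each) for length and GC content, voom on the recovered reads, the compared groups alone, a replicate term and leaving out each library; the fit without the Pam3csk4 3 h libraries was added after seeing the data. The 5 genes and the lists were chosen with earlier results of these data known. Named were the 5 genes, up to 3 passing list members of largest change per comparison, the largest where none passed, and the 3 genes of highest r per member; Rnf31, Sharpin and values of named genes in further comparisons were added after their values were seen. Python 3.11.15 and matplotlib 3.10.9 were used.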

Additional observations from a re-analysis of the deposited data

Results flagged for a closer look

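The change between 1 h and 3 h differed between the ligands for 4 of the 5 genes, by the interaction term in limma. Over all tested genes 9.2% passed for this term, 5.71% lower and 3.49% higher. AmTARS minus Pam3csk4, the term was -0.77 for Tnfaip3, -0.86 for Irak3, -1.01 for Tnip1 and -0.76 for Tnip3 on the log2 scale. The single changes were -0.05 with AmTARS and 0.72 with Pam3csk4 for Tnfaip3, 0.70 and 1.56 for Irak3, 0.28 and 1.28 for Tnip1, and 0.61 and 1.37 for Tnip3. No cause of the differences was tested.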

How the results depend on the processing

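Of the calls for single genes, those of Irak3 at 1 h and of Tnip1 for AmTARS at 3 h against 1 h ended when 1 library was left out, as given with those results, and those of Tnip3 at 1 h appeared with the length and GC correction. Leaving out 1 library, the number of the 5 genes called ran from 1 to 2 for AmTARS at 1 h, from 1 to 2 for Pam3csk4 at 1 h and from 2 to 3 for AmTARS at 3 h against 1 h. With the length and GC correction it was 3 for each ligand at 1 h. That correction called 1581 of 11364 genes for AmTARS and 2590 for Pam3csk4 at 1 h. Every other call was kept under each of the 19 or 20 alternatives run for it. The depth, 557 reads for Tnip2 in 1 library at the lowest, and 2 libraries per group limit how small a change could be seen.

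Values that changed sign had not passed before and did not pass after. With the length and GC correction Tnip2 stood at -0.098 for AmTARS at 3 h, -0.080 for Pam3csk4 at 3 h, 0.0203 between the ligands at 1 h and -0.038 for the difference of the time changes, and Tnip3 at -0.033 between the ligands at 1 h. Quantile scaling gave -0.0065 for Tnip2 in the difference of the time changes. Leaving out 1 library, Tnip2 ran from -0.0097 to 0.033 for AmTARS at 3 h, from -0.13 to 0.053 for AmTARS at 1 h, from -0.11 to 0.077 between the ligands at 1 h, from -0.042 to 0.14 for AmTARS at 3 h against 1 h and from -0.088 to 0.095 for the difference of the time changes. Tnip1 ran from -0.050 to 0.048 for AmTARS at 1 h and from -0.086 to 0.012 for Pam3csk4 at 1 h. The cause was not tested.

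Deviations of same-numbered libraries correlated at -0.206 to 0.204, and the main fit did not pair libraries by number. With 2 libraries per group the deviations mirror each other, so these correlations cannot exclude a shared batch. With the replicate number as a block Tnip2 stood at -0.011 for AmTARS at 3 h, 0.0081 between the ligands at 1 h and -0.041 for the difference of the time changes, and no call of the 5 genes changed. Over all genes the block called 2017 for AmTARS at 3 h (4186 without it) and 672 for the difference of the time changes (1049 without it).

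On the recovered reads voom called 4263 genes for AmTARS at 3 h, 4425 for AmTARS at 1 h, 5651 for Pam3csk4 at 3 h and 5424 for Pam3csk4 at 1 h, all within 1.5 times of the counts given. Other counts over all genes moved by over 1.5 times as well. The length and GC correction gave 2099 for AmTARS at 3 h (4186 without it), 1581 for AmTARS at 1 h (4415), 2590 for Pam3csk4 at 1 h (5556) and 473 for AmTARS at 3 h against 1 h (271). Fitting only the groups compared gave 42 between the ligands at 1 h (21) and 492 for AmTARS at 3 h against 1 h (271), and leaving out both Pam3csk4 3 h libraries, an alternative chosen after seeing the data, gave 34 between the ligands at 1 h. Without 1 library the counts ran from 1997 to 4438 for AmTARS at 3 h, 2603 to 4702 for AmTARS at 1 h, 15 to 34 between the ligands at 1 h, 1141 to 2103 at 3 h, 89 to 381 for AmTARS at 3 h against 1 h, 2381 to 3490 for Pam3csk4 and 675 to 1333 for the difference of the time changes.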
